A study of Mus musculus with 2 samples.

Results

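The CCN genes encode a small family of secreted matricellular proteins, which sit in the extracellular matrix and act on cells rather than holding the matrix together. CTGF (CCN2) and CYR61 (CCN1) bind integrins, heparan sulphate proteoglycans and growth factors, and they promote adhesion, migration and matrix deposition in fibroblasts. In the Hippo pathway the LATS kinases phosphorylate the co-activators YAP and TAZ and keep them out of the nucleus. Ctgf and Cyr61 are among the most widely used readouts of YAP and TAZ bound to TEAD factors, and they also respond to serum through SRF and to TGF-beta through SMAD proteins.

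The 6 genes of the family, Ctgf, Cyr61, Nov, Wisp1, Wisp2 and Wisp3 (newer symbols Ccn2, Ccn1, Ccn3, Ccn4, Ccn5 and Ccn6), were looked up by symbol on a whole mouse genome oligonucleotide array that holds 27745 gene names. Of these, 5 were found, each with 1 probe spotted once, and Wisp3 was not analysed here. The RNA came from untreated embryonic fibroblasts (MEFs) of LATS2-/- mice (KO) and of LATS2+/+ mice (WT), both on the C57BL/6J strain. The labels give neither the age of the embryos nor their number. The first array paired KO in Cy5 with WT in Cy3, and the second paired KO in Cy3 with WT in Cy5. Whether the same RNA preparations went onto both arrays is not given in the labels, so the arrays were counted as 1 replicate, and there is no test of the genotypes. The spread given with each value is between the arrays and covers labelling, hybridisation and dye error. If the RNA preparations differed, it also holds the difference between them. It was not taken as a spread between animals. A ratio at a single probe had an SD between the arrays of 0.133 on the log2 scale over 40875 probes. The ratios of all these probes correlated between the arrays with a Pearson's r of 0.899, which is across probes and not across replicates.

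Lats2, the targeted gene, had 4 probes. Their log2 ratios of KO over WT were 0.63, 0.56, 0.56 and -0.35, so 3 of 4 read higher in the RNA labelled KO. The sources used here do not give the part of Lats2 that the allele lacks, and a probe outside that part checks nothing. For that reason each RNA is named below by its label, KO or WT. All 10 fibroblast markers examined were well above background in at least 1 of the RNAs, and 9 of them in both. Their median log2 ratio was -0.33, with a range from -0.89 for Vim to 0.90 for Fn1. Fn1 had 4 probes, which ranged from 0.27 to 0.99. Past 1 SD between the arrays on each array were 6 of the 10 in the lower direction and 1 in the higher, against 27.9% and 26.5% of all genes. The marker that failed in the RNA labelled KO was Vim, which had 1 probe, so its ratio is less certain than the others. None of 4 endothelial, 4 epithelial and 4 skeletal muscle markers was well above background in either RNA. Of 4 blood cell markers, Cd68 and Csf1r were, with log2 ratios of 0.14 and -0.05, whereas Ptprc and Itgam were not. Of 4 neural markers 3 were above background in both RNAs, with Map2 at -0.95, Nes at -0.30 and Tubb3 at -0.11. Of 5 cartilage and bone markers 4 were, from -0.41 for Runx2 to 0.46 for Sox9. The part of these differences in the CCN values was not tested. In RNA from whole cultures, fewer cells of a type and less RNA per cell cannot be told apart.

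A gene was called when each array gave a ratio of at least 2-fold, with the same sign, and its probe was well above background, by the scanner software's flag, on both arrays in the RNA where it was higher. The rule could be applied to the 4 CCN genes with a value on both arrays, and not to Ctgf, whose second spot failed quality control. Of these, 0 of 4 were called higher in the RNA labelled KO, against 2.96% of the 15838 genes with a value on both arrays and a signal well above background in at least 1 RNA. Likewise 0 of 4 were called lower, against 2.60% of those genes. The 5 genes were not alike. Ctgf had the largest ratio, 3.92-fold higher in the RNA labelled KO on the 1 array where its spot passed quality control. Cyr61 was 1.60-fold higher. Nov was lower, with a log2 ratio of -0.81, and its KO signal was not well above background on the first array. Under 2 other background corrections the ratio became -1.46 and -2.67, both then called lower. Without background subtraction it was -1.04 and was not called. Wisp1 lay within 1 SD of equality on both arrays and Wisp2 on 1 of them. The median log2 ratio of the 5 was 0.08, beside -0.00 over all genes well above background.

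**Figure D1:**
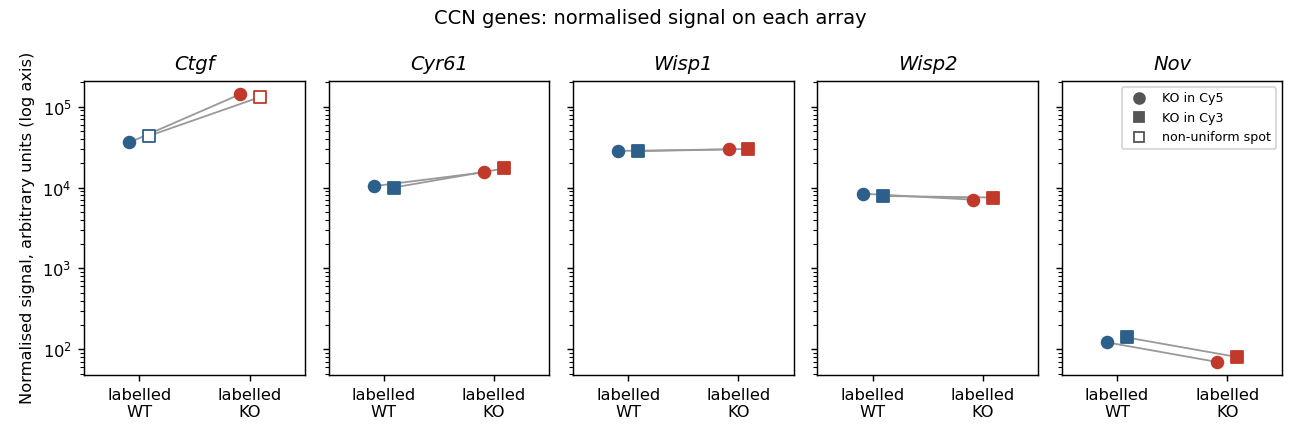
Normalised signal of the 5 CCN probes in the RNA labelled WT (blue) and the RNA labelled KO (red), in arbitrary units on a log axis, with circles for the array with KO in Cy5, squares for the array with KO in Cy3 and lines joining the RNAs of 1 array. On both arrays Ctgf and Cyr61 lie higher for KO and Nov lower, Wisp1 is level, and open symbols mark the Ctgf spot read as non-uniform. Heights are not comparable between probes.

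Ctgf encodes a cysteine-rich protein that drives connective tissue growth and fibrosis downstream of TGF-beta and YAP. Its probe lies at chr10:24287891-24287950 on the plus strand of the mm8 mouse build; the place of the probes within exons was not analysed here. The scanned mean signal on the first array was 264992 units in the RNA labelled KO (Cy5) and 19202 units in the RNA labelled WT (Cy3), over local backgrounds of 44 and 26 units. On the second array it was 77862 units for KO (Cy3) and 72874 units for WT (Cy5), over 26 and 34 units. The KO signal was the higher one on each array, but by very different margins before the dyes were balanced, with ratios of 13.8 and 1.07. After normalisation the Ctgf signal was 141764 units for KO and 36153 units for WT on the first array, and 130825 and 43675 units on the second. After normalisation too, the KO value was the higher one on each array. Feature Extraction, the scanner software, reads a very bright spot from a scan at lower gain, and it did so for the KO signal on the first array and for both signals on the second, but not for the WT signal on the first. No spot of either array was marked as saturated.

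The second Ctgf spot did not pass quality control. Feature Extraction marked it as non-uniform in both channels. The signal of its pixels varied with a CV of 56.0% in Cy3 and 55.8% in Cy5, whereas the spot on the first array had 10.7% in Cy5 and 9.17% in Cy3. The median CV of 6537 bright spots on the second array was 15.1% in Cy3 and 15.9% in Cy5. With that spot left out, the log2 ratio of Ctgf was 1.97 from the first array alone. With it kept, the second array gave 1.58 and the mean was 1.78, or 3.43-fold. Ctgf was then called higher, and it was the 1 CCN gene called of 5, against 2.95% of 15948 genes under the same rule. Its kept value lay at the 98.9th percentile of all genes well above background.

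The arrays differed by 0.389 in the log2 ratio of Ctgf. The SD of a single ratio at similar signal was 0.156, over probes with a value on both arrays. A difference between a pair of ratios spreads more widely than a single ratio, so 0.389 is not to be read against 0.156 directly. Over 49 spots well above background that were non-uniform in both channels on the second array only, the SD between the arrays was 0.234, compared with 0.137 over the 23540 spots with no mark on either array. Outlier marks of any kind gathered at the bright end of the scale. Of the brightest 1% of spots, 57.1% carried one on the first array and 57.8% on the second, whereas the shares over all spots were 0.899% and 0.871%. On the second array the ratio of Ctgf was 3.00-fold with the marked spot.

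**Figure D2:**
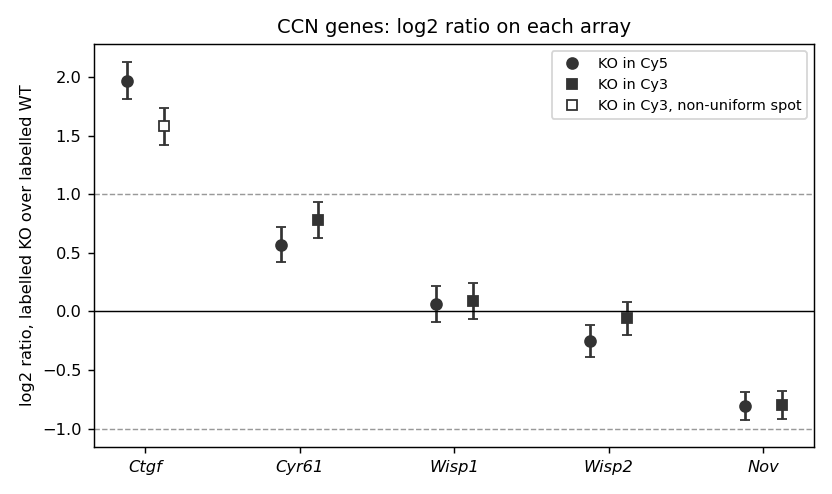
Log2 ratio of the RNA labelled KO over the RNA labelled WT for each CCN probe on each array; bars are 1 SD of a single ratio between the arrays at similar signal, and dashed lines mark 2-fold. Ctgf lies at 1.97 and, for the non-uniform spot, 1.58, Cyr61 between 0.57 and 0.78, Wisp1 and Wisp2 near 0, and Nov at -0.81 and -0.80.

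Cyr61 encodes an immediate early protein that supports adhesion, angiogenesis and wound repair, and can push fibroblasts into senescence. Its probe lies at chr3:145584609-145584668 on the minus strand of mm8. The normalised signal was 15441 units for KO and 10403 units for WT on the first array, and 17194 and 10003 units on the second. On each array the KO value was the higher one. The log2 ratios were 0.57 and 0.78, with a mean of 0.68 and an SD of that mean of 0.106 at similar signal. Both ratios were past 1 SD between the arrays, and both were below 2-fold, at 1.48-fold and 1.72-fold. Among the CCN genes with a value on both arrays, Cyr61 was the 1 of 4 past that SD in the higher direction on each array, which 26.5% of all 15838 genes were. Its mean stood at the 93.3rd percentile of all genes well above background.

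Of the 6 genes, 2 had a promoter in the RefSeq promoter table used here, Cyr61 and Wisp3; Ctgf, Nov, Wisp1 and Wisp2 had none there. The 250 bases before the RefSeq start of Cyr61 are shown because this gene is a textbook target of TEAD-bound YAP and of serum, and its RNA was the higher in the RNA labelled KO. They are at chr3:145649986-145650235 on the minus strand of GRCm38.p6, a build other than that of the probe coordinates, and are written 5′ to 3′ in the direction of the gene. Capitals mark, in order, a TEAD core, a CRE half-site and a TATA box.

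Cyr61 promoter: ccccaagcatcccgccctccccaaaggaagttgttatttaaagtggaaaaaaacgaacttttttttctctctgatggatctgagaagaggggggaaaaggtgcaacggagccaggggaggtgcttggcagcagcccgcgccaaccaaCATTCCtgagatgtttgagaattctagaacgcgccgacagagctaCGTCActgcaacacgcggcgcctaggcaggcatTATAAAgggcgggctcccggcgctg

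The TEAD core was searched as GGAATG on both strands and was found once, as CATTCC, from -103 to -98 relative to the start. The CRE half-site, bound by CREB and ATF factors, was searched as TGACG on both strands and was found as CGTCA from -58 to -54. The TATA box was searched as TATAAA on the gene strand and was found from -25 to -20. No CArG box, the element bound by SRF, was found on either strand. Of 32851 promoter windows of this length, 12.6% held the TEAD core, 17.8% the CRE half-site, 7.59% the TATA box and 1.47% a CArG box. The matches did not overlap each other. They describe the letters of this window and do not show that a factor binds there. The window of Wisp3, not shown, held a CRE half-site from -36 to -32 and no CArG box.

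Wisp1 encodes a protein first found as induced by WNT1, and promotes fibroblast proliferation and bone formation. Its probe lies at chr15:66752744-66752803 on the plus strand of mm8, 12.2 Mb from the probe for Nov on the same chromosome. The normalised signal was 29649 units for KO and 28353 units for WT on the first array, and 30022 and 28123 units on the second. These 4 values were close together, with KO slightly the higher on each array. The log2 ratios were 0.06 and 0.09, both within the SD of 0.154 at similar signal, and the mean was 1.06-fold.

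Wisp2 is the family member that lacks the cystine-knot domain at the carboxyl end, and it is known in smooth muscle and fat cell precursors as a brake on proliferation or differentiation. Its probe lies at chr2:163524422-163524481 on the plus strand of mm8. The normalised signal was 7075 units for KO and 8390 units for WT on the first array, and 7524 and 7857 units on the second. KO was the lower on each array. The log2 ratios were -0.25 and -0.06, with a mean of -0.15 and an SD of that mean of 0.097. The first ratio was past the SD of a single ratio at similar signal, 0.137, and the second was not.

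Nov, also known as CCN3, often counters CCN2 in fibroblasts and mesangial cells and restrains proliferation. Its probe lies at chr15:54582732-54582791 on the plus strand of mm8. It was dim, so the background matters here more than for the other members. The scanned mean signal on the first array was 53.0 units for KO (Cy5) and 79.0 units for WT (Cy3), over local backgrounds of 32 and 31 units. On the second array it was 44.3 units for KO (Cy3) and 152 units for WT (Cy5), over 33.5 and 37 units. On the first array the spot was well above background for WT only, and on the second it was so for both RNAs.

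After normalisation the signal of Nov was 69.5 units for KO and 122 units for WT on the first array, and 80.1 and 140 units on the second. On each array the KO value was the lower one. The log2 ratios were -0.81 and -0.80, which differ by far less than the SD of a single ratio at similar signal, 0.120. That closeness held with an offset of 10, at -1.44 and -1.48, but not with Feature Extraction's correction, given below. Nov was the 1 of 4 CCN genes past 1 SD in the lower direction on each array, which 27.9% of all 15838 genes were. These ratios include an offset of 50 units, added to every signal after the background correction, which draws dim probes towards 0. With an offset of 10 the ratio was -1.46, and Nov was called lower, the 1 of the members with a value on both arrays, against 3.59% of genes. With Feature Extraction's own background correction and dye normalisation, which add no such offset, the ratios were -3.12 and -2.21 with a mean of -2.67, and Nov was called lower against 5.47% of genes. The KO signal stood 21.0 units over its local background on the first array and 10.8 units on the second, so no fold is given for Nov. Without background subtraction the ratio was -1.04, and Nov was not called. The direction was the same under each of these settings, and the size ranged from -0.81 to -2.67.

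**Figure D3:**
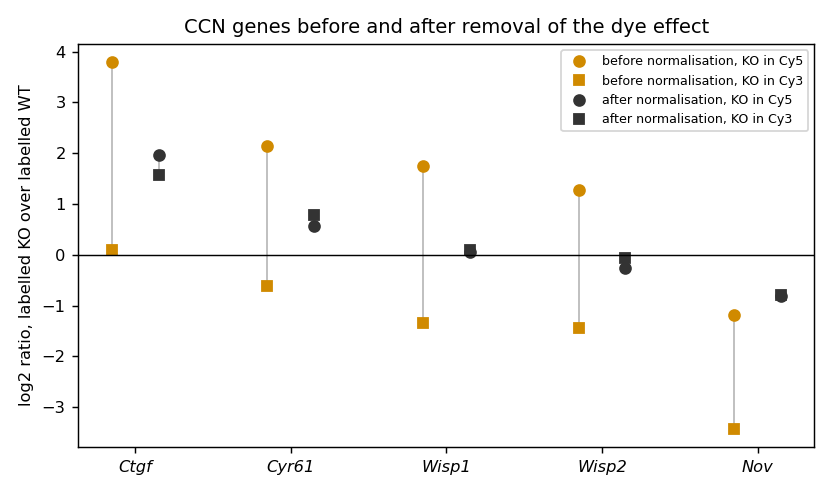
Log2 ratio of the RNA labelled KO over the RNA labelled WT for each CCN probe on each array, from background-subtracted signals before normalisation (orange) and after normalisation by loess (black), the non-uniform Ctgf spot included. Before normalisation the arrays lie far apart in every gene, from 3.79 and 0.10 for Ctgf to -1.19 and -3.42 for Nov, and after it they lie close together.

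The dye exchange bears on each of these values. Before normalisation the array with KO in Cy5 gave every CCN gene a higher ratio than the array with KO in Cy3. For Cyr61 the unnormalised log2 ratios were 2.15 and -0.61, opposite in sign, for Wisp1 1.75 and -1.34, and for Wisp2 1.27 and -1.44. Averaging the arrays cancels a dye effect that is equal on both. The mean of the unnormalised ratios was 1.94 for Ctgf, 0.77 for Cyr61, 0.20 for Wisp1, -0.09 for Wisp2 and -2.31 for Nov. The order of the genes was thus the same before and after normalisation, with Ctgf highest and Nov lowest. When each array was only centred on its median, Cyr61 read 1.65 and -0.10, Wisp1 1.26 and -0.83 and Wisp2 0.77 and -0.91, so single arrays then turned sign although each mean kept its sign.

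The log2 ratios that the submitters deposited come from the same scans. In that table Ctgf read 1.95 and 1.58 with the non-uniform spot included, Cyr61 0.59 and 0.76, Wisp1 0.08 and 0.07, Wisp2 -0.23 and -0.10 and Nov -3.12 and -2.21. By the same 2-fold rule 1 CCN gene, Ctgf, was called higher in it, against 5.91% of genes, and 1, Nov, was called lower, against 5.44%. On the array with KO in Cy5 taken alone, Ctgf was the 1 CCN gene at least 2-fold higher, against 3.53% of genes.

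**Figure D4:**
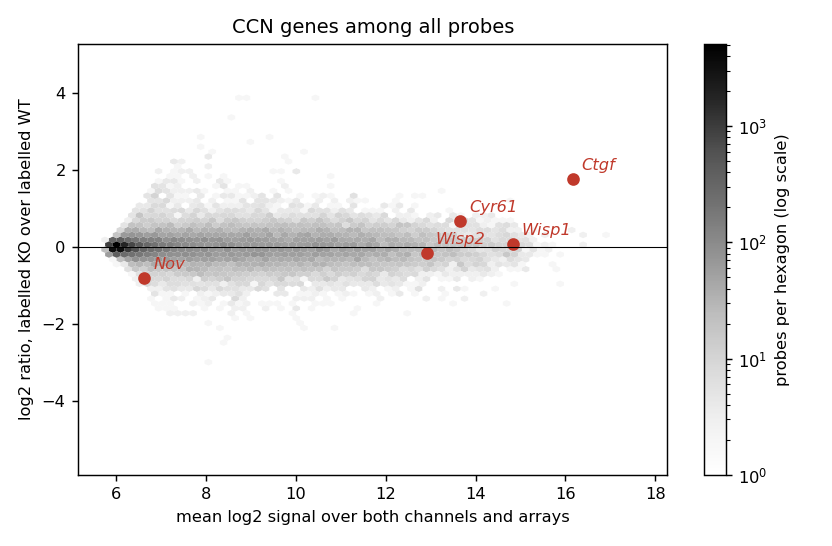
Log2 ratio of the RNA labelled KO over the RNA labelled WT (mean of both arrays) against mean log2 signal for all probes with a value, as hexagons shaded by the number of probes on a log scale, with the 5 CCN probes in red and the non-uniform Ctgf spot included. Ctgf stands above the cloud at the bright end at 1.78, Cyr61 at its upper edge at 0.68, and Nov at its lower edge at the dim end at -0.81.

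The pathway genes around the family were taken from lists of YAP/TAZ targets, upstream regulators, receptors and SRF targets. These lists were chosen with earlier results of these data known, so their counts are a description and not a test. Of the 19 YAP/TAZ targets outside the family, 18 had a value on both arrays. Of these 18, 6 were called higher in the RNA labelled KO, beside 2.96% of all genes, and 0 lower, beside 2.60%. The median log2 ratio of the 19 was 0.55. Ankrd1, a muscle ankyrin-repeat protein and common YAP readout, had log2 ratios of 3.73 and 3.34 with a mean of 3.54, or 11.6-fold. F3, which encodes tissue factor, the starter of blood clotting, was higher by 2.58 on the log2 scale. The other 4 were Crim1, a transmembrane protein that binds bone morphogenetic proteins (1.31), Igfbp3, which binds insulin-like growth factors (1.26), Tgfb2, a TGF-beta ligand (1.24), and Amotl2, an angiomotin that holds YAP in the cytoplasm (1.14). Igfbp3 had 3 probes, which ranged from 0.07 to 1.26, and the other probe of Crim1 read 0.95. The lowest of the list was the secreted protein gene Ccdc80, at -0.61 on the 1 array where its spot passed. Counting those called, 12 of the 18 were past 1 SD on each array in the higher direction, beside 26.5% of all genes, and 3 in the lower, beside 27.9%.

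Of 17 upstream regulators, which comprise transcription factors, their co-activators and TGF-beta ligands and receptors, 0 were called in either direction (all genes 2.96% higher and 2.60% lower), and the median log2 ratio was 0.07. Of these, 6 were past 1 SD on each array in the higher direction and 2 in the lower, where the shares of all genes were 26.5% and 27.9%. The highest was Tead2, a DNA-binding partner of YAP and TAZ, with 0.82 and 0.58 and a mean of 0.70, while its other probe read 0.43. Level with it at 0.70 was Tgfbr2, whose 3 probes ranged from -0.08 to 0.70. The lowest was Tgfbr1, the type I TGF-beta receptor, with -0.44 and -1.11 and a mean of -0.78, while its other probe read 0.07. The array measured RNA, and the phosphorylation and location of YAP and TAZ were not measured.

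Of 10 genes for receptors of CCN proteins, 9 were matched, 0 were called higher (all genes 2.96%) and 1 was called lower (all genes 2.60%), and the median log2 ratio was -0.18. The gene called lower was Itgb3, the beta subunit of the alpha-v beta-3 integrin, through which CYR61 and CTGF act on cells. Its brighter probe read -1.79 and -1.81, or 3.49-fold lower, but its other probe had a mean of -0.15, so the probes disagree. The highest was Lrp6, a WNT co-receptor that CTGF binds, at 0.13. Past 1 SD on each array were 0 of 9 in the higher direction and 4 in the lower, against 26.5% and 27.9% of all genes.

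Of 14 SRF and MRTF targets, 13 were matched, with a median log2 ratio of 0.13, and 8 of them had a value on both arrays. Of these 8, 0 were called higher and 1 was called lower, against 2.96% and 2.60% of all genes. Acta2, Tpm2, Fhl2, Fhl1 and Zyx had a value on 1 array and could not be called; with outlier spots kept, 0 of the 13 were called higher and 1 lower. The gene called lower was Cnn1, the smooth muscle protein calponin, at -2.08 and -2.14, or 4.32-fold lower. The highest was Zyx, which encodes the focal adhesion protein zyxin, at 1.35 on the 1 array where its spot passed. Of the 8, 1 was past 1 SD on each array in the higher direction and 2 in the lower, against 26.5% and 27.9% of all genes.

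**Figure D5:**
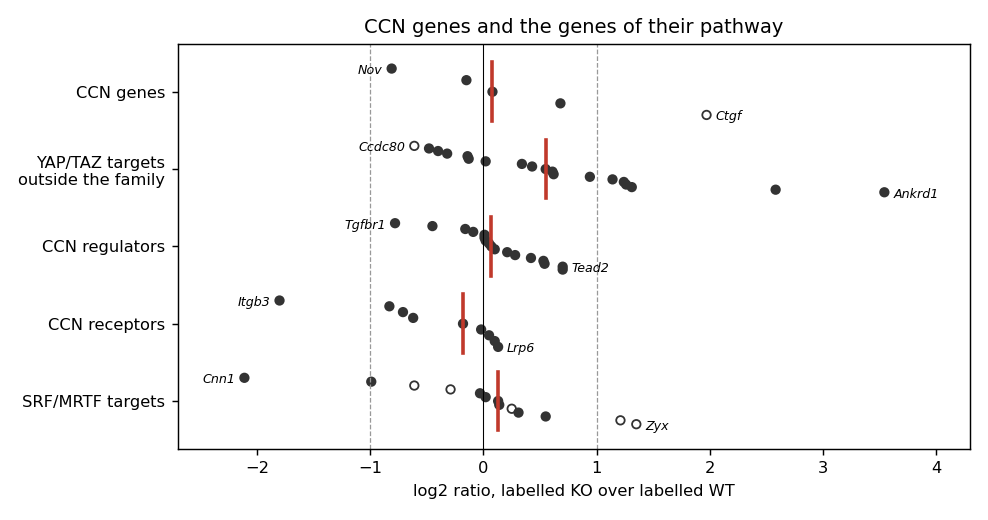
Log2 ratio of the RNA labelled KO over the RNA labelled WT for each matched gene of the CCN family and of the lists around it; open points have a value on 1 array only, red bars are medians and dashed lines mark 2-fold. The YAP/TAZ targets have a median of 0.55, with Ankrd1 at 3.54, while the medians of the other lists lie between -0.18 and 0.13.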

How the data were processed

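RNA of LATS2-/- and LATS2+/+ fibroblasts was compared on 2 Agilent 2-colour arrays with exchanged dyes. Per the file headers, spots were read with Feature Extraction (10.5.1.1 in the submitters' processing notes), and the authors deposited each spot's mean signal and median local background as intensity (arbitrary units). A log10 ratio of Cy5 over Cy3, corrected and dye-normalised by Feature Extraction, stands in these deposited files too. A further table from the authors gives a log2 ratio of KO over WT per probe, made from the processed signals, with its centring unstated.

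Intensities were background corrected (normexp, offset 50) and normalised by loess within each array with limma 3.58.1 in R 4.3.3. Control spots had weight 0 in the loess, and spots with an outlier flag were then left out. The second array was turned, and the arrays were averaged. Channel levels were scaled between arrays by Aquantile. Where a gene had several probes, the brightest stood for it, and a gene list was described by its counts and median. An SD at similar signal was taken over the 1000 probes nearest in mean signal among those with a value on both arrays. Ctgf lies at the bright end, where many spots were left out, so its nearest probes may be less similar to it in signal. The named genes are all family members, Lats2, and of each list the genes called and the highest and lowest. Wisp3, Itgb5 and Filip1l matched no gene name used here. The members and lists were chosen with earlier results of these data known. Probe positions are those of the files (mm8); promoter sequence is from RefSeq (GRCm38.p6). On a simulated dye swap of 41174 probes, 89.5% of 200 probes changed 4-fold passed the 2-fold part of the call rule on each array, with 0 false calls. The filter on background was not applied in the simulation. The changed probes were picked among those well above background in both RNAs on both arrays, and no outlier spots were simulated. The simulation therefore cannot speak for a dim probe such as that of Nov or a marked spot such as that of Ctgf. Its noise was set in advance, so the 0 is no measure of the error rate of these arrays. The number of arrays limits the precision. Alternatives were Feature Extraction's ratio, an offset of 10, no background subtraction, median centring, the submitters' table, outlier spots kept, each array alone, the mean over probes, other filters on background, the methods' t-test and limma's test; the last pair compares the RNAs hybridised, not the genotypes.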

Additional observations from a re-analysis of the deposited data

How the results depend on the processing

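Some alternatives could not change a member, since each has 1 probe and only Ctgf has an outlier spot. Of the 34 recalculations of a member's mean log2 ratio that could change it, 26 moved by less than 1 SD of the mean and none turned its sign. Feature Extraction's ratio and the submitters' table share their source, so these are not separate checks. Those that moved further were Nov in 4 of 7, Ctgf in 3 of 6, Wisp1 in 1 of 7, and Cyr61 and Wisp2 in 0 of 7 each. The number of CCN genes called lower, 0, became 1 with Feature Extraction's ratio, with an offset of 10 and in the submitters' table, and that gene was Nov, at -2.67, -1.46 and -2.67. The number called higher, 0, became 1 in the submitters' table, with outlier spots kept and on the array with KO in Cy5 alone, and that gene was Ctgf, at 1.77, 1.78 and 1.97. The requirement of a value on both arrays removed Ctgf from the count. With median centring the CCN median was 0.22 in place of 0.08, and Ctgf read 3.29 from the first array alone, with the dye effect left in. The receptor median of -0.18 was -0.35 on the array with KO in Cy5 and 0.00 on the other, and the SRF/MRTF median of 0.13 was -0.03 on the array with KO in Cy5; the cause was not tested. No paired analysis was possible because only 1 pair of samples was analysed; each ratio already sets KO against WT within 1 array. The 5 genes rest on 1 spot each per array, and signal over background limits Nov, whose ratio moved with the background correction.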
